A study of Chlamydomonas reinhardtii with 2 samples.

Results

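The oxygen-evolving complex and minor antenna genes are 7 nuclear genes of photosystem II in the unicellular green alga Chlamydomonas reinhardtii, taken by their symbols in the deposited gene tables: PSBO1, PSBP1, PSBQ1, PSBR1, PSBW1, LHCB4 and LHCB5. All 7 were found, 1 row each, among 17693 reference genes. RNA was sequenced from the strains CC5325 and CC125, 1 library each, and the labels give wild type for both. Both strains grew with acetate in TAP medium on a shaker at 25 °C with light of 20 μmol photons per m2 each second, and the study compared their transcript levels. With 1 library a strain there is no replicate spread, so no p-value is given, and every interval below covers counting error only. In bulk RNA, fewer cells that express a gene and less of its RNA per cell cannot be told apart.

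Photosystem II splits water at a manganese cluster on the lumen side of the thylakoid membrane and passes the electrons on to plastoquinone. PSBO1, PSBP1 and PSBQ1 encode the extrinsic subunits that cap this cluster. PSBO stabilises the manganese, and PSBP and PSBQ help to hold the calcium and chloride that the reaction needs. PSBR1 and PSBW1 encode small membrane subunits. In Arabidopsis PSBR aids the attachment of the extrinsic proteins and PSBW the joining of the core to its antenna. LHCB4 (CP29) and LHCB5 (CP26) are the monomeric, or minor, antenna proteins, which bind chlorophyll and link the trimeric major antenna to the core.

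In the CC5325 library the 7 genes lay close together, while in CC125 they were spread widely and PSBR1 and PSBW1 led. On the deposited TPM scale both these small-subunit genes had almost the same abundance in the 2 libraries. PSBO1, PSBQ1, LHCB4 and LHCB5 were between 7.38 and 21.9 times higher in CC5325 by Coverage once it was put on each library's TPM scale, and each of them rested on few reads in CC125. PSBP1 lay between these groups.

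Levels are given as Coverage, the mean number of reads over each base of a gene, and as TPM, a length-scaled relative abundance. Both are per length, so genes can be compared within a library. TPM is scaled over loci assembled in that library. Of a total of 1e+06 TPM, nuclear reference genes held 2470 in CC5325 and 1465 in CC125. Most of the scale thus lies outside them, so a TPM ratio between the libraries also depends on what else each library holds. The tables implied 5.81 Gb of aligned bases in CC5325 and 3.18 Gb in CC125, of which at most 108004 and 34287 reads of 150 bases lay in reference genes. Of the 17693 genes, 53.3% were listed above 0 in CC5325 and 21.2% in CC125. The 7 genes were above 0 in both libraries, and all 7 reached 1 TPM in CC5325, against 2 of the 7 in CC125. Of all 17693 genes, 209 reached 1 TPM in CC5325 and 130 in CC125. The number of reads behind a member was estimated from Coverage and a length, since the tables hold no counts. For each member there was a length, up to its span on the chromosome, at which Coverage times length came to a whole number of bases in both libraries (within 6e-07 times the length). The longest such length was used, and reads are these bases over 150. Such a length was also found for 442 of 536 other nuclear genes (82.5%) with a span up to 3000 bp and signal in both libraries, but for 0 of 7 LHCBM genes of the major antenna, which are close paralogs of each other.

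**Figure D1:**
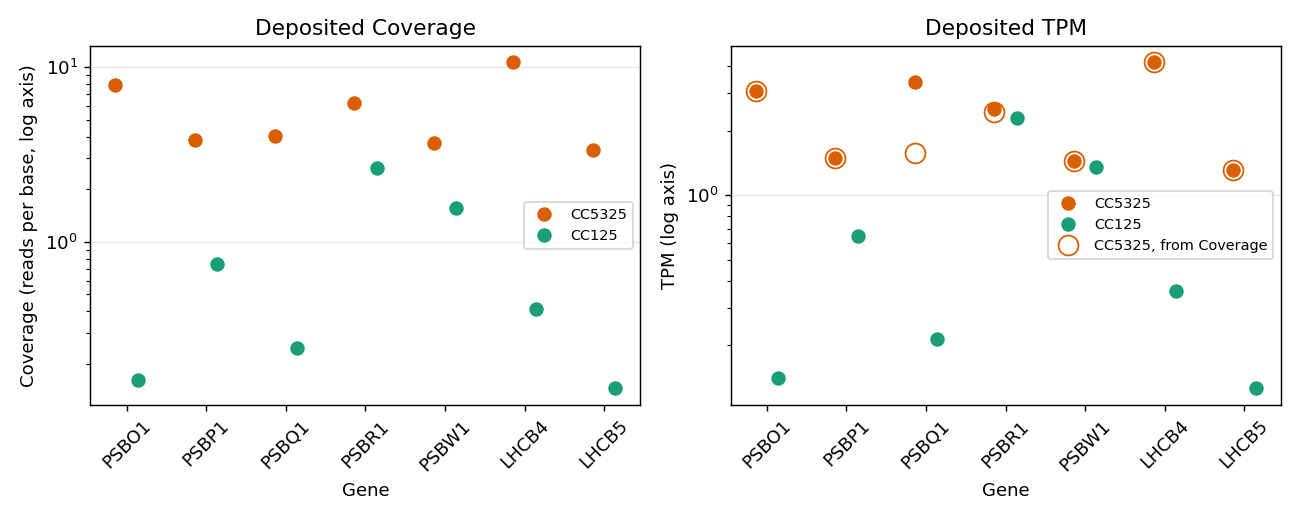
Coverage in reads per base (left) and TPM (right) of the 7 genes, both on log axes, with 1 point per library, CC5325 left of CC125. Open circles give the CC5325 TPM that follows from Coverage, which is apart from the deposited TPM for PSBQ1 (1.58 against 3.38) and slightly for PSBR1 (2.44 against 2.52); PSBR1 and PSBW1 have nearly equal TPM in both libraries.

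Of the extrinsic subunits, PSBO1 (Cre09.g396213, chromosome 9, 3487374 to 3489866, plus strand) had a Coverage of 7.86 in CC5325 and 0.162 in CC125. In TPM this was 3.08 in CC5325 and 0.141 in CC125. With a length of 1702 bp these values correspond to 13370 aligned bases in CC5325 and 276 in CC125, or 89 and 2 reads. Had CC125 held PSBO1 at the CC5325 level on the TPM scale, about 40 reads would lie there. A length of 851 bp also gives whole bases and would halve these reads. The ratio of CC5325 over CC125, after each Coverage was put on its library's TPM scale, was 21.9 (95% exact binomial interval 5.40 to 168), the highest point ratio among the 7.

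PSBQ1 (Cre08.g372450, chromosome 8, 2488823 to 2491170, minus strand) had a Coverage of 4.02 in CC5325 and 0.246 in CC125. With 2020 bp this is 8129 aligned bases in CC5325 and 497 in CC125, or 54 and 3 reads. Its deposited TPM was 3.38 in CC5325 and 0.214 in CC125, but the CC5325 value is 2.14 times what its Coverage gives, which is 1.58 TPM. A locus assembled from the CC5325 reads on the same strand spans 1447 of the 2348 bp of the gene, at a Coverage of 8.45 and 3.31 TPM. The deposited TPM of PSBQ1 was thus close to that of the shorter locus. By Coverage the ratio was 7.38 (2.63 to 40.6), and by deposited TPM it was 15.8. PSBQ1 was higher in CC5325 on both measures, and its size depends on which is used.

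PSBP1 (Cre12.g550850, chromosome 12, 8336313 to 8338386, plus strand) was the extrinsic subunit gene with the highest level in CC125. Its Coverage was 3.83 in CC5325 and 0.746 in CC125, and its TPM 1.5 and 0.648. The length could be any of 18 multiples of 114 bp, and the longest, 2052 bp, gives at most 52 reads in CC5325 and 10 in CC125. The ratio was 2.32 (1.18 to 5.18). When pairs of mates were the counting unit the interval was 0.886 to 7.82 and took in equality. PSBP1 was therefore nominally higher in CC5325, by an amount that this depth does not separate from equality once mates are joined.

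The 2 small-subunit genes were the only members at 1 TPM or more in CC125. PSBR1 (Cre06.g261000, chromosome 6, 1548046 to 1549222, plus strand) had a Coverage of 6.23 in CC5325 and 2.64 in CC125. Its TPM was 2.52 in CC5325 and 2.29 in CC125. PSBW1 (Cre11.g801318, chromosome 11, 3104832 to 3106305, minus strand) had a Coverage of 3.69 in CC5325 and 1.56 in CC125. Its TPM was 1.44 in CC5325 and 1.36 in CC125. PSBR1 rested on 35 reads in CC5325 and 15 in CC125, and PSBW1 on 36 in CC5325 and 15 in CC125, the highest numbers of any member in CC125. For PSBR1 this takes a length of 852 bp, and 426 bp also gives whole bases.

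On the TPM scale from Coverage the PSBR1 ratio was 1.07 (0.560 to 2.07) and the PSBW1 ratio 1.07 (0.578 to 2.13). These intervals take in equality and also a 2-fold difference, so they do not show that the levels were the same. In raw Coverage both genes were 2.36 times higher in CC5325, and the scale between the libraries alone brings this near 1. With the scale set by the median of all tested genes their log2 ratios were -0.32 for PSBR1 and -0.36 for PSBW1, so the direction of both genes turns with the scale.

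Of the minor antenna, LHCB4 (Cre17.g720250, chromosome 17, 3061385 to 3062772, minus strand) was the most abundant of the 7 in CC5325, with a Coverage of 10.7, against 0.414 in CC125. Its TPM was 4.18 in CC5325 and 0.360 in CC125. With 843 bp this is 8992 aligned bases in CC5325 and 349 in CC125, or 60 and 2 reads, where 27 would lie in CC125 at the CC5325 level. The ratio was 11.6 (3.59 to 114). The unnamed gene Cre17.g720183 overlaps 123 bp of LHCB4 on the same strand, at 0.348 TPM in CC5325 and 0.149 in CC125, and reads in that stretch could belong to either gene.

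LHCB5 (Cre16.g673650, chromosome 16, 6634283 to 6637222, plus strand) was the least abundant of the 7 in both libraries. Its Coverage was 3.35 in CC5325 and 0.145 in CC125, and its TPM 1.31 and 0.126. With 2149 bp this is 7207 aligned bases in CC5325 and 312 in CC125, or 48 and 2 reads. The ratio was 10.4 (2.84 to 92.0), close to that of LHCB4. LHCB5 had a mean of 0.720 TPM and was the 1 member below the filter of a mean of 1 TPM used for the count over all genes.

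**Figure D2:**
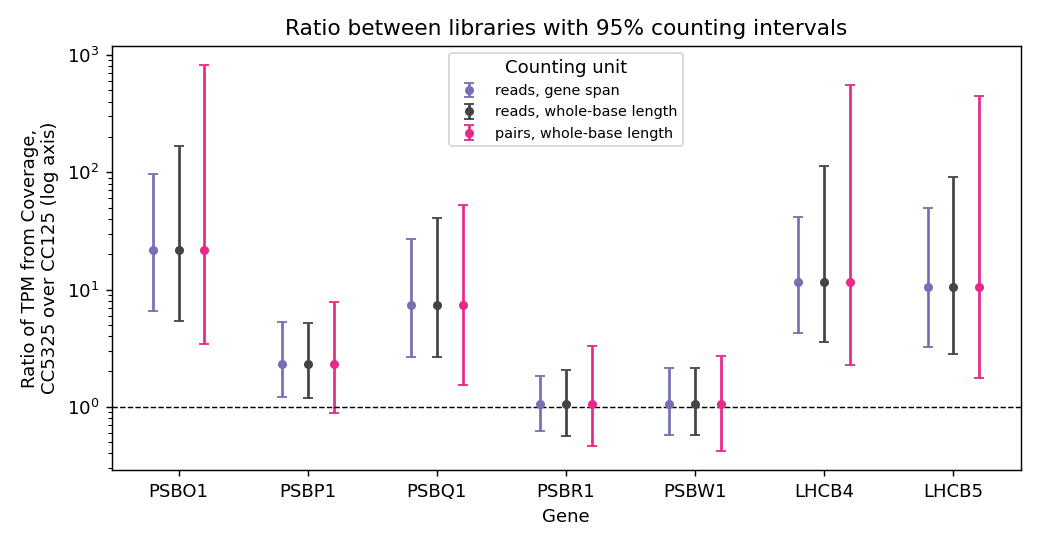
Ratio of TPM from Coverage, CC5325 over CC125, on a log axis for each gene, with 95% exact binomial intervals for 3 counting units: reads estimated over the gene span, reads over the whole-base length, and pairs of mates over that length. PSBO1, PSBQ1, LHCB4 and LHCB5 stay above equality (dashed line) with each unit, PSBR1 and PSBW1 lie at 1.07, and PSBP1 is above it with reads but not with pairs.

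With pairs of mates as the unit, the CC125 level of PSBO1, LHCB4 and LHCB5 rested on 1 pair each and that of PSBQ1 on 2. The lower bounds of the ratio were then 3.46 for PSBO1, 2.25 for LHCB4, 1.77 for LHCB5 and 1.53 for PSBQ1. The upper bounds ran up to 819, so the size of these differences is known only loosely.

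On the log2(TPM + 1) scale, which understates differences near 1 TPM, the values were 1.93 for LHCB4, 1.85 for PSBQ1, 1.84 for PSBO1 and 1.04 for LHCB5. PSBP1 had 0.60, PSBR1 0.10 and PSBW1 0.05. So 4 of the 7 genes were at least 2-fold higher in CC5325 and none was 2-fold lower. Over all 17693 reference genes 0.492% were 2-fold higher and 0.102% lower, most genes lying near 0. On this scale a gene can be 2-fold higher only if it has at least 1 TPM in CC5325. All 7 members reached that level, but only 209 of the 17693 genes did. The 4 of 7 is therefore not read against the 0.492%. Among the 175 genes whose mean reached 1 TPM, 34.9% were 2-fold higher and 10.3% lower. Of the 6 members that passed this filter 3 were 2-fold higher. With TPM recomputed from Coverage the number was 2, since PSBQ1 then fell below the filter. PSBO1, PSBQ1 and LHCB4 lie so low in CC125 that passing the filter fixed their direction, and nothing is read from their count. Their median log2 ratio, over all 7, was 1.04, beside 0.41 for the 175 genes.

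The make-up of the 7 genes within a library does not depend on the scale between libraries. In CC5325 the order by Coverage was LHCB4, PSBO1, PSBR1, PSBQ1, PSBP1, PSBW1 and LHCB5, and the highest was 3.18 times the lowest. In CC125 it was PSBR1, PSBW1, PSBP1, LHCB4, PSBQ1, PSBO1 and LHCB5, and the highest was 18.2 times the lowest. For each of the 6 steps between neighbours in either order, the counting interval of their ratio took in equality. PSBO1 stood next to the top in CC5325 and next to the bottom in CC125.

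**Figure D3:**
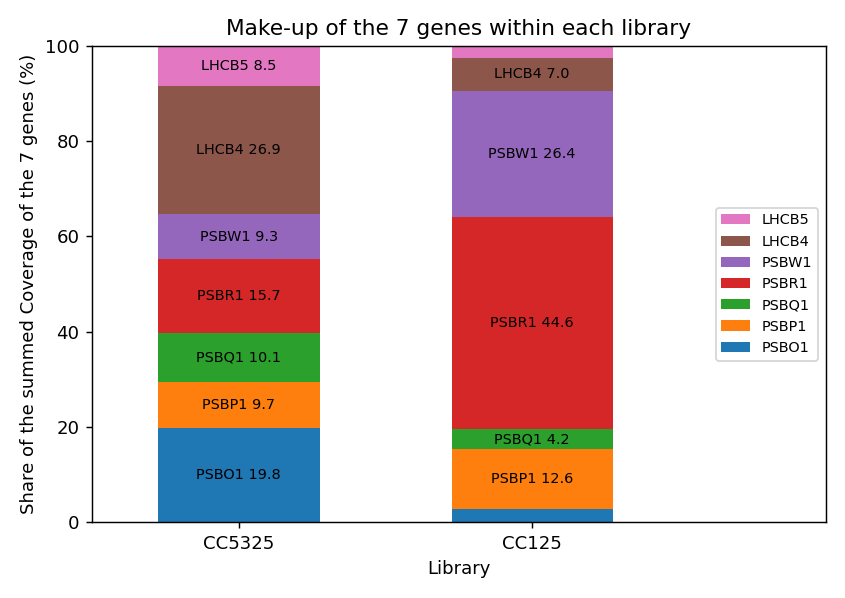
Share of each gene in the summed Coverage of the 7 genes, in percent, stacked for the CC5325 library (left) and the CC125 library (right). PSBR1 and PSBW1 together take 25.0% in CC5325 and 71.0% in CC125, LHCB4 26.9% and 7.0%, and PSBO1 19.8% and 2.74%.

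PSBR1 and PSBW1 together held 25.0% of the summed Coverage of the 7 genes in CC5325 and 71.0% in CC125. Counted in reads, they held 71 of 374 in CC5325, or 19.0% (95% exact binomial interval 15.1 to 23.3), and 30 of 49 in CC125, or 61.2% (46.2 to 74.8). In pairs of mates the shares were 19.1% (13.8 to 25.5) in CC5325 and 60.0% (38.7 to 78.9) in CC125. The intervals lay apart with either unit. This pair was singled out after its values were seen.

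A difference between the libraries in the balance of extrinsic subunits and minor antenna was not detectable at this depth. PSBO1, PSBP1 and PSBQ1 summed to 7.96 TPM in CC5325 and 1.002 in CC125, and LHCB4 and LHCB5 to 5.49 TPM in CC5325 and 0.486 in CC125. The quotient of these sums was 1.45 in CC5325 and 2.06 in CC125. By Coverage, which lowers PSBQ1, it was 1.12 in CC5325 (0.881 to 1.43) and 2.06 in CC125 (0.657 to 8.54). The minor antenna held 108 of 303 reads of these 5 genes in CC5325, or 35.6% (30.2 to 41.3), and 4 of 19 in CC125, or 21.1% (6.05 to 45.6). The CC125 value rests on 4 reads of minor antenna genes, and the intervals overlapped.

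Within the minor antenna, LHCB4 Coverage was 3.18 times that of LHCB5 in CC5325 (2.14 to 4.76) and 2.85 times in CC125 (0.185 to 35.2). Within the extrinsic subunits, PSBO1 Coverage was 2.05 times that of PSBP1 in CC5325 (1.45 to 2.96) and 0.217 times in CC125 (0.0257 to 1.13). PSBP1 was thus below PSBO1 in CC5325 and above it in CC125 by point value. These read intervals lay apart, but with pairs of mates they were 1.26 to 3.52 in CC5325 and 0.00510 to 2.15 in CC125 and overlapped. PSBQ1 Coverage was 1.05 times that of PSBP1 in CC5325 (0.707 to 1.57) and 0.330 times in CC125 (0.0539 to 1.18), and these intervals overlapped.

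PSBR1, the member with the highest level in CC125, served as a yardstick inside each library, a choice made after seeing the values. LHCB4 Coverage was 1.71 times that of PSBR1 in CC5325 (1.12 to 2.71) and 0.157 times in CC125 (0.0150 to 0.579). PSBO1 was at 1.26 times PSBR1 in CC5325 (0.852 to 1.94) and 0.0615 times in CC125 (0.00741 to 0.287). PSBQ1 was at 0.646 times PSBR1 in CC5325 (0.418 to 1.03) and 0.0933 times in CC125 (0.0157 to 0.298). LHCB5 was at 0.538 times PSBR1 in CC5325 (0.344 to 0.866) and 0.0551 times in CC125 (0.00587 to 0.227). For these 4 genes the intervals of the libraries lay apart. With pairs of mates only those of PSBO1 did.

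PSBW1 had the same proportion to PSBR1 by point value, 0.592 in CC5325 (0.363 to 0.976) and 0.592 in CC125 (0.264 to 1.27). PSBP1 was at 0.615 times PSBR1 in CC5325 (0.394 to 0.976) and 0.283 times in CC125 (0.111 to 0.659), and the intervals overlapped.

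**Figure D4:**
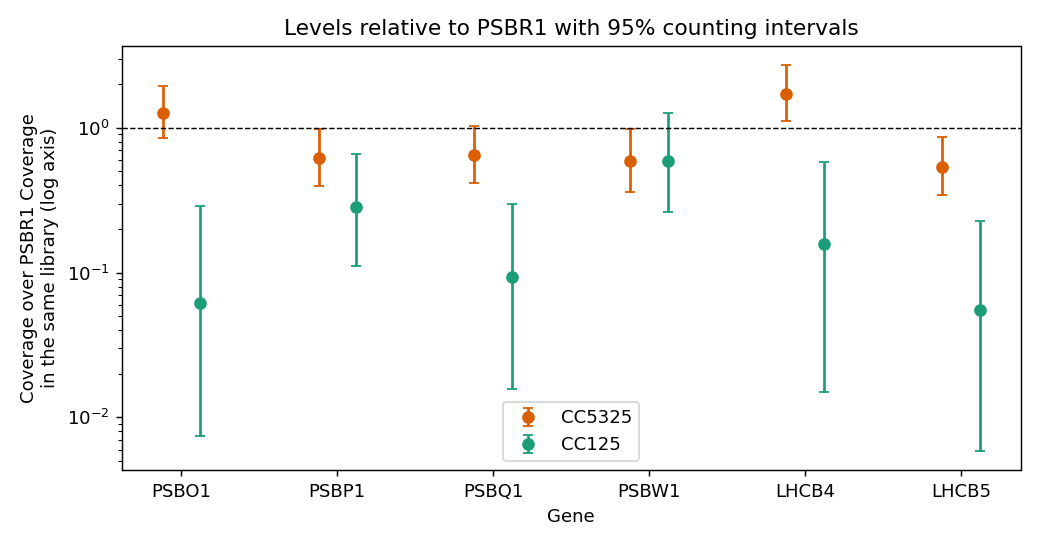
Coverage of each gene divided by PSBR1 Coverage in the same library, on a log axis, with 95% exact binomial intervals from estimated reads, CC5325 left of CC125. The intervals lie apart for PSBO1, PSBQ1, LHCB4 and LHCB5 and overlap for PSBP1 and PSBW1, and PSBW1 is at 0.592 in both libraries.

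The loci assembled from the reads, which the rule leaves out as members, come from the same libraries and are no separate measure of the genes. In CC5325 all 7 genes were overlapped by an assembled locus, 8 loci in all, and in CC125 only PSBR1 was. The share of all reference genes with such a locus was not determined. CC125 held 49 estimated reads over the 7 genes against 374 in CC5325, so nothing is read from these counts. The CC5325 loci at PSBR1, LHCB4 and LHCB5 had the same start, end, Coverage and TPM as the gene. PSBO1 was covered in CC5325 by 2 separate loci, 3487418 to 3488142 at a Coverage of 11.5 and 3488275 to 3489556 at 9.28. The CC125 locus at PSBR1 ran from 1548029 to 1548804 with a Coverage of 3.75. Apart from the gene that overlaps LHCB4, the nearest reference genes on either side of the 7 lay at 0.0777 TPM or less in CC5325 and at 0.0279 TPM or less in CC125, below each member in the same library.

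Among 17489 nuclear genes, LHCB4 ranked 43 by TPM in CC5325 and 192 in CC125. PSBO1 ranked 86 in CC5325 and 440 in CC125, while PSBR1 ranked 99 and 49 and PSBW1 144 and 78. PSBP1 kept nearly its place, at 140 in CC5325 and 146 in CC125. The 7 genes summed to 17.4 TPM in CC5325 and 5.13 in CC125, or 0.705% and 0.350% of the TPM of nuclear reference genes.

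By distance on the log2(TPM + 1) scale over 2 values only, the nuclear gene with a symbol most like LHCB4 was LHCBM2, of the major antenna, at 4.26 TPM in CC5325 and 0.537 in CC125 (distance 0.18). LHCA9, an antenna gene of photosystem I, at 2.86 TPM in CC5325 and 0.204 in CC125, was nearest to both PSBO1 (0.11) and PSBQ1 (0.18). For PSBQ1 this rests on its deposited CC5325 TPM of 3.38, where its Coverage gives 1.58. PSAK1, a photosystem I subunit gene, was nearest to PSBP1, at 1.54 TPM in CC5325 and 0.596 in CC125 (0.05). Nearest to LHCB5 was FAP310, of the flagellar associated proteins, at 1.17 TPM in CC5325 and 0.151 in CC125 (0.10). PSBW1 lay nearest to EIF4A, a translation initiation factor gene, at 1.52 TPM in CC5325 and 1.24 in CC125 (0.08).

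Of 6 further nuclear photosystem II subunit genes, 5 were above 0 in CC5325 and 3 in CC125, and none had a mean of 1 TPM. PSB27, an assembly factor of the luminal side, was at 0.716 TPM in CC5325 and listed at 0 in CC125. PSBX1, a small membrane subunit, was at 0.518 TPM in CC5325 and 0.363 in CC125. PSBY1 was at 0.286 TPM in CC5325 and listed at 0 in CC125. These 6 genes had a median log2 ratio of 0.15 without a filter, and the added 1 TPM holds genes this low near 0.

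Of 14 photoprotection genes (PSBS, LHCSR and ELIP types), 6 were above 0 in CC5325 and 5 in CC125, and none passed the filter. ELIP9, of the early light-induced type, was at 0.128 TPM in CC5325 and 0.848 in CC125, with no more than 3 reads over its span in CC5325 and 7 in CC125. ELIP10 was at 0.195 TPM in CC5325 and 0.0334 in CC125, and ELIP3 at 0.0132 TPM in CC5325 and 0.0882 in CC125. Over its span ELIP10 had no more than 6 reads in CC5325 and a number rounding to 0 in CC125. ELIP3 had no more than 1 in CC5325 and 2 in CC125. The counting intervals of both ratios took in equality. Of 22 genes for assembly, repair and state transitions 18 were above 0 in CC5325 and 13 in CC125, and none passed. By mean TPM over both libraries the highest were NAB1, a repressor of LHCBM translation, at 0.361 TPM in CC5325 and 0.143 in CC125, CAO1, chlorophyllide a oxygenase, at 0.299 TPM in CC5325 and 0.0374 in CC125, and the FTSH2 protease gene, at 0.257 TPM in CC5325 and 0.0663 in CC125. NAB1, CAO1 and FTSH2 rested on no more than 4, 1 and 3 reads over their spans in CC125. The median log2 ratio was 0.00 for the photoprotection genes and 0.07 for the assembly genes, beside 0.00 for all 17693 reference genes. With 1 TPM added to each value, genes this low stay near 0 whatever their ratio. These medians therefore do not show that the levels were the same.

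The 9 LHCBM genes summed to 37.7 TPM in CC5325 and 8.43 in CC125, and the 2 minor antenna genes came to 14.6% of this sum in CC5325 and 5.76% in CC125. The CC125 percentage rests on 4 estimated reads of minor antenna genes, so no shift between minor and major antenna is read from it. Most of the CC125 sum was LHCBM1, with the highest mean TPM of the list, at 12.4 TPM in CC5325 and 6.07 in CC125. Its log2 ratio was 0.92, short of 2-fold. Of the list of 10 major antenna genes with LHCB7, 4 passed the filter and 3 of these were 2-fold higher in CC5325, LHCBM7, LHCBM3 and LHCBM2, beside the 34.9% of all 175 genes. These 3 were below 1 TPM in CC125, so passing the filter fixed their direction. The median log2 ratio of the 10 was 0.71 without a filter. The plastid-encoded photosystem II core ran the other way. Its 16 rows, with psbA at 2 places, summed to 19.9 TPM in CC5325 and 59.1 in CC125. Of 9 rows that passed, 1 (psbE) was 2-fold higher in CC5325 and 4 were lower, both psbA rows, psbD and psbC, beside 34.9% higher and 10.3% lower among all 175 genes. The median log2 ratio of the 16 rows was -0.62 without a filter. For psbE, at 4.34 TPM in CC5325 and 0.937 in CC125, and for psbC, passing the filter fixed the direction, and Coverage gives psbE only 0.166 TPM in CC125. The psbC gene, for the inner antenna protein CP43, was at 0.241 TPM in CC5325 and 2.40 in CC125. The sum of the 7 nuclear genes was thus near that of the core genes in CC5325, at 17.4 against 19.9 TPM. It was far below that of the core genes in CC125, at 5.13 against 59.1 TPM. By TPM from Coverage the sums were 15.5 against 19.9 in CC5325 and 5.13 against 49.6 in CC125.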

How the data were processed

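Total RNA of 1 CC5325 and 1 CC125 library was depleted of ribosomal RNA and read as paired ends of 150 bases, per the labels' protocols; the molecule field names polyA RNA. The submitters' processing notes name HISAT2 2.2.1 and StringTie 2.2.3 beside Trimmomatic and FastQC 0.12.1, without settings. The deposited tables list Coverage (a signal of reads per base, not scaled across libraries), FPKM and TPM per gene, as the authors' StringTie run gave them. Identifiers and coordinates are those of the files, whose suffix names version 6.1 of the CC-4532 annotation.

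Genes were taken by symbol, and the ratio was log2((TPM + 1)/(TPM + 1)), CC5325 over CC125. Called means past 2-fold with a mean of at least 1 TPM, in place of a test. TPM from Coverage is Coverage times the library's median TPM per unit of Coverage, 0.392 in CC5325 and 0.868 in CC125. Ratios have exact binomial intervals at 95% conditional on the summed reads; reads of a pair are not independent, so intervals with pairs of mates (300 bases) are given too. Whole-base lengths and pairs were chosen after seeing the data. The members, the 5 related lists and the rules were chosen with earlier results of these data known. Named were all members, of each list up to 3 genes with the highest mean TPM and those 2-fold apart, and the gene nearest each member, of which 1 is not reported here. Intervals were tested on simulated independent reads, for genes with more CC125 reads than PSBO1, PSBQ1, LHCB4 and LHCB5 had. That test therefore does not cover these genes or the dependence of mates. Length finding was tested on random Coverage and on Coverage simulated from whole bases, where the true length fits by construction. Tools were scipy 1.17.1, pandas 2.3.3, numpy 2.4.6 and, for plots, matplotlib 3.10.9 under Python 3.11.15. No sequence is printed, since none was used here.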

Additional observations from a re-analysis of the deposited data

How the results depend on the processing

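LHCB4, PSBO1, PSBQ1, LHCB5 and PSBP1 had a log2 ratio above 0 under each of the 7 other pseudocounts, units and scales tried. PSBP1, however, ranged from 0.03 to 1.10. It was nearly equal in the libraries at 0.03, with the scale set by a trimmed mean of log ratios, and was 0.19 with the median of all genes set to 0. PSBR1 ranged from -0.57 to 0.20 and PSBW1 from -0.52 to 0.13, so neither has a direction. The 3 members counted as 2-fold higher with a mean of at least 1 TPM became 0 with a pseudocount of 5 TPM or with a 4-fold rule. The number was also 0 with FPKM, because none of the 3 had a mean of 1 FPKM. Their log2 ratios in FPKM were still 1.16 for PSBO1, 1.21 for PSBQ1 and 1.33 for LHCB4. The number 2-fold lower was 0 in each setting. Over the 7 genes the median log2 ratio became 2.64 with a pseudocount of 0.1 TPM and 0.30 with 5 TPM; a pseudocount changes ratios of genes near 1 TPM by construction. It was 0.63 with the median of all genes set to 0.

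The quotient of extrinsic subunits over minor antenna in CC5325 was 1.12 by Coverage and by TPM recomputed from it, 1.91 with PSBR1 added, 0.888 without PSBO1, 0.834 without PSBQ1, 6.06 without LHCB4 and 1.90 without LHCB5. In CC125, where it was 2.06, it was 0.730 without PSBP1, 6.78 with PSBR1 added and 7.95 without LHCB4. The share of PSBQ1 in CC5325 was 19.4% by TPM and 10.1% by Coverage. With the median set to 0, 7 plastid core rows were 2-fold lower. Reads from exon lengths were not run, because no exon table was used here. No paired analysis was possible because each strain has 1 library, and for the same reason no replicate could be left out. The depth of CC125, 49 estimated reads over the 7 genes against 374 in CC5325, limits each comparison.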
